A study of Mus musculus with 4 samples.

Results

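The genes described here are 10 genes of the T cell receptor complex and of the first steps of its signalling, chosen by name: the CD3 chains Cd3d, Cd3e and Cd3g, the kinase Zap70, the adaptors Lat, Lcp2, Trat1 and Skap1, the surface phosphatase Ptprc and the surface receptor Cd2. All 10 were measured, out of 22180 genes with a probe set of a single gene symbol, and each had 1 such probe set. RNA levels came from 4 Affymetrix mouse arrays, 1 for each group, and are given as log2 values. The arrays held colon intraepithelial lymphocytes (IEL, the lymphocytes lying between epithelial cells) of mice recolonized after antibiotics, colon IEL of unmanipulated mice, IEL of the small intestine of unmanipulated mice, and a sample labelled T cells of the colon lamina propria, the tissue layer beneath the epithelium (below, the lamina propria-labelled array).

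All groups were C57Bl/6 mice of 8 to 10 weeks. The study's design text describes pools of 10 mice, 5 male and 5 female, in one place for each sample and in another in total, so no array stands for single animals. T cells of all groups were enriched by magnetic negative selection with an added antibody against EpCAM, an epithelial surface protein. The recolonized mice drank ampicillin and neomycin at 0.01% each and metronidazole and vancomycin at 0.05% each for 7 days, and were then recolonized for 7 days from untreated littermates, by shared housing in one passage of the design text and by used bedding in another. No array of mice given antibiotics alone was analysed here, so antibiotics and recolonization cannot be told apart. With 1 array per group no difference has a replicate error or a test, and the number of arrays limits the precision.

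A T cell recognizes antigen through receptor chains that have no signalling tail of their own and depend on the CD3 chains to reach the surface and to signal. When the receptor is engaged, tyrosines in the CD3 tails are phosphorylated, the kinase ZAP-70 docks there, and it phosphorylates the membrane adaptor LAT, on which further proteins including SLP-76 (the product of Lcp2) assemble. CD45, the product of Ptprc, is a phosphatase of nearly all white blood cells that keeps the first kinase of the chain ready to act. The CD3 chains are restricted largely to T cells, whereas Lcp2 and Ptprc are also used by other blood cells, and Zap70, Lat and Cd2 also by natural killer cells.

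The 3 CD3 genes are neighbours on chromosome 9 in RefSeq's annotation of mouse (GRCm38.p6). Cd3g and Cd3d lie head to head on opposite strands, with 1355 bases between their starts, and Cd3e starts 27825 bases from Cd3d. The 250 bases before each start are shown as a description of the 3 genes. Of these adjacent genes, Cd3d and Cd3g differed unequally between colon and small intestinal IEL. As deposited, Cd3g was lower in colon IEL by 1.22, while Cd3d was nearly level, with a difference of 0.10 (values below). Any link of the promoter letters to these levels was not tested. The sequences are RefSeq's, GRCm38.p6, 5′ to 3′ on the gene's own strand. Capitals mark matches on either strand to AGGAAG, an extended form of GGAA, the core of sites for ETS family transcription factors. The windows are chr9:44980432-44980681 (minus strand) for Cd3g, chr9:44981536-44981785 (plus strand) for Cd3d and chr9:45009612-45009861 (minus strand) for Cd3e.
Cd3g: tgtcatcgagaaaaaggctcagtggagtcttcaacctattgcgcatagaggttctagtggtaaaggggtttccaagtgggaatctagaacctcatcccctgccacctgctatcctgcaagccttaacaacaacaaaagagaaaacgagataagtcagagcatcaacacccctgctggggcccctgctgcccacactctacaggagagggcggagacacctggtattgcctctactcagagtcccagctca
Cd3d: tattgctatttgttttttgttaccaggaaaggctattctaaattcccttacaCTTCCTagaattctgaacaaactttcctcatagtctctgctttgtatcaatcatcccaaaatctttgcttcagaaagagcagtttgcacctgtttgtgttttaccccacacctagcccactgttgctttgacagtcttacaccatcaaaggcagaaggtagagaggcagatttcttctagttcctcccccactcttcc
Cd3e: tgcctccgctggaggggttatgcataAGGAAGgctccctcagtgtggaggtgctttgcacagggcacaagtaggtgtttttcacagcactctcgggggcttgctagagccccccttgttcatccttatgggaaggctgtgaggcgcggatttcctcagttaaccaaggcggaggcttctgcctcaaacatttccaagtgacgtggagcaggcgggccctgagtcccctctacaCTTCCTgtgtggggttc

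Cd3e held 2 such matches to AGGAAG, the nearer beginning 17 bases before the start, Cd3d held 1, and Cd3g held 0. The shorter core GGAA also stands in lower case in each of these windows, that of Cd3g included. Promoters of 8 of the 10 genes were in the RefSeq table, 11 promoters in all because Zap70 has 3 and Ptprc 2. The entries for Cd2 and Skap1 were not used here. AGGAAG was found in 8 of the 11 promoters and in 29.5% of 32851 mouse promoter windows of the same length. The 8 promoters belong to 6 of the 8 genes: Cd3d, Cd3e, Lat, Lcp2, Ptprc and Zap70. The 2 Ptprc windows overlap and share 1 match, which counts in both. The other 4 short motifs were searched on both strands. TGNGGT, a RUNX motif, lay in 5 of the 11 and in 40.1% of all windows, and CAGNTG, an E protein motif, in 7 of the 11 and in 44.8%. CTTTGA, read by TCF and LEF factors, lay in 5 of the 11 and in 13.8%. The letters AGATAA, which erythroid and lymphoid zinc finger factors bind, lay in 3 of the 11 promoters and in 9.99% of all windows. In the order Cd3g, Cd3d and Cd3e, TGNGGT had 1, 1 and 1 matches and CAGNTG 2, 1 and 0. CTTTGA had 0, 2 and 0, and AGATAA 1, 0 and 0. No matches of different motifs overlapped in these promoters. Such matches describe letters only, and the motifs were picked after the sequences had been read.

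All 10 genes were lower on the lamina propria-labelled array than on any IEL array, by between 1.36 and 6.64 on the log2 scale. Cd3e, the chain on which assembly of the CD3 complex rests, was at 9.43 in recolonized colon IEL, 9.17 in colon IEL and 9.49 in small intestinal IEL, against 3.72 on the lamina propria-labelled array. The 3 IEL arrays lay within 0.32 of each other, and the fourth was lower than the lowest of them by 5.44 on the log2 scale. Ptprc was at 9.01, 8.71 and 9.10 on the recolonized, colon and small intestinal IEL arrays, against 3.09 on the lamina propria-labelled array. Cd3g was at 8.77, 8.03 and 9.25 on the same 3 IEL arrays, against 2.61. Differences of 5 or more on the log2 scale were seen for these 3 genes in each of the 3 comparisons with that array.

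The other 7 genes were also higher on every IEL array. Cd3d was at 6.54 in recolonized colon IEL, 5.64 in colon IEL and 5.54 in small intestinal IEL, against 2.41 on the lamina propria-labelled array. Zap70 was at 5.32, 4.76 and 5.30 on the 3 IEL arrays in that order, against 2.63. Both lay close to the middle of the fourth array, whose median over all genes was 2.18. Lat was at 6.76, 5.50 and 5.95, against 2.22, and Lcp2, the partner of Lat in signalling, at 7.80, 7.51 and 7.81, against 3.45. Trat1, an adaptor that associates with the receptor complex, was at 3.74, 3.92 and 4.27, against 1.94. Skap1, an adaptor that links the receptor to integrin adhesion, was at 5.65, 4.76 and 4.69, against 2.33. Cd2, a receptor whose mouse ligand is CD48 and which strengthens adhesion and signalling, was at 5.67, 4.70 and 3.77, against 2.41. Every one of the 10 had its 3 IEL levels above its level on the fourth array, and for Cd2 the gap to the lowest IEL array, that of the small intestine, was the smallest of the 10 at 1.36. Of the 10, Trat1 alone lay under the median of all genes on the lamina propria-labelled array.

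**Figure D1:**
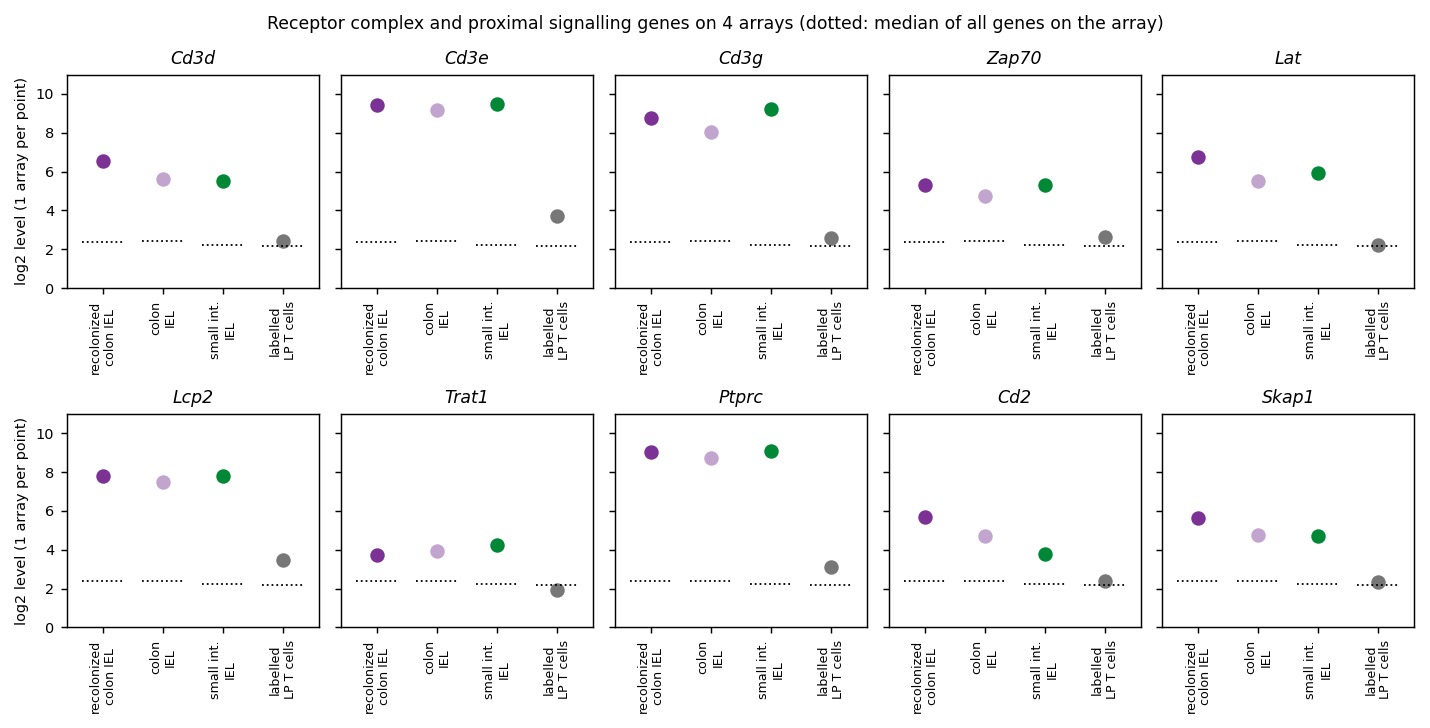
Log2 level of each of the 10 genes on the 4 arrays, 1 point per array (recolonized colon IEL, colon IEL, small intestinal IEL, lamina propria-labelled array, left to right); dotted lines mark the median of all genes on each array. The 3 IEL arrays sit above the fourth in every panel, and Cd2 steps down over the IEL arrays, at 5.67, 4.70 and 3.77.

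Genes differing by 2-fold or more (1.0 on the log2 scale) were called higher or lower if the brighter of the compared levels reached the 50th percentile of that array, a floor all 10 genes passed in each of the 6 comparisons. In colon IEL all 10 were higher by this rule than on the lamina propria-labelled array and 0 lower, as were 10.5% and 34.7% of all 12788 genes tested, with a median difference of 3.26 against −0.44 for all genes. On the recolonized array all 10 were higher, with a median difference of 4.24, where 9.41% of all genes were higher and 30.3% lower. On the small intestinal IEL array all 10 were higher, with a median of 3.43, where 8.76% of all genes were higher and 15.7% lower. These 3 comparisons share the lamina propria-labelled array, so they are not independent of each other.

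The differences from that array spread over a wide range, from 1.36 for Cd2 on the small intestinal IEL array up to 6.64 for Cd3g on the same array. As fold sizes these were 2.57 and 99.6. On each of the 3 IEL arrays Cd3e, Cd3g and Ptprc had the 3 largest differences. In bulk samples fewer cells of a type and less RNA per cell cannot be told apart. The sample's content went against its label: Cd3d and Cd3g lay at its 55.0th and 58.3rd percentile of all genes and Cd3e at its 72.2nd, while the median level of 14 pan-epithelial markers there was 8.42, against 5.44, 4.27 and 6.26 on the recolonized, colon and small intestinal IEL arrays. Of 12 pan-leukocyte genes, the median level was 6.71, 6.48 and 6.97 on those IEL arrays, against 2.76 on the lamina propria-labelled array, a median difference of 3.94, 3.68 and 4.02. The part of these other cells in the low receptor gene levels was not tested.

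**Figure D2:**
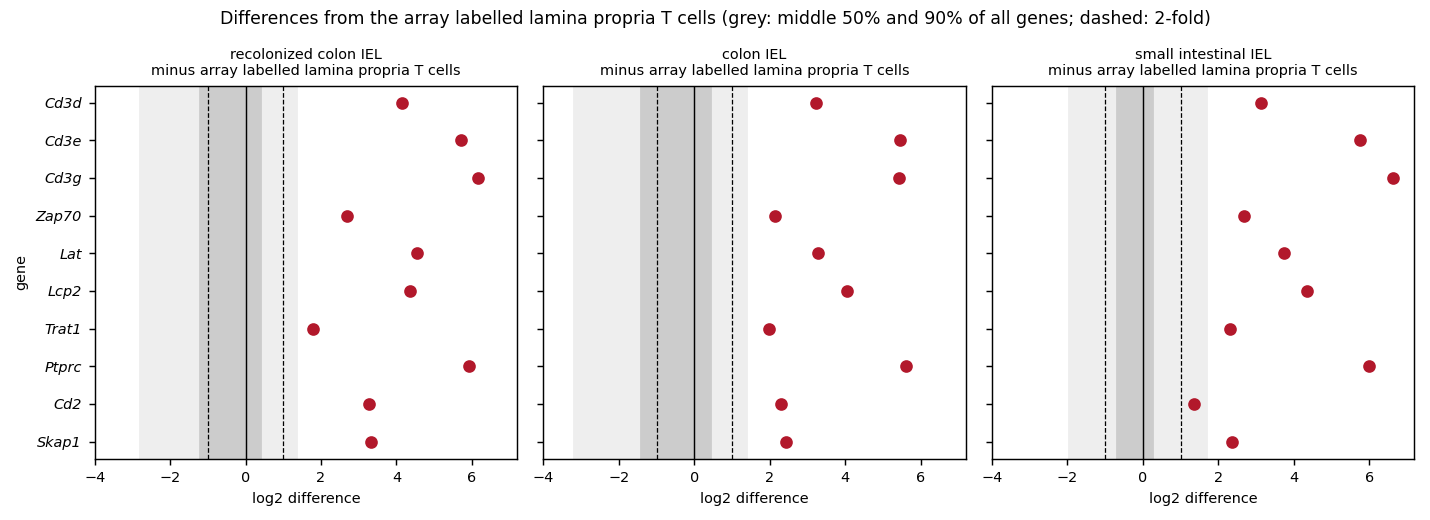
Log2 difference of each of the 10 genes for each IEL array minus the lamina propria-labelled array (horizontal axis); grey bands hold the middle 50% and 90% of all genes above the floor and dashed lines mark 2-fold. All 10 points lie right of the 2-fold line in each panel, and 9 of 10 lie right of the grey band on the small intestinal IEL panel, Cd2 with 1.36 being inside it.

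The comparison of colon with small intestinal IEL bears on how these lymphocytes differ along the gut. As deposited, most of the 10 genes were close on both arrays: 9 of 10 lay within 2-fold, 0 were higher and 1, Cd3g, was at least 2-fold lower on the colon array, where 5.98% of all 12551 genes were higher and 24.4% lower. The median difference was −0.33, against −0.30 for all genes above the floor. Cd3g was lower by 1.22 in colon IEL, at 8.03 against 9.25 in small intestinal IEL, and Cd2 was higher by 0.93, at 4.70 against 3.77. For Cd3g, the only member past 2-fold, 80.8% of all genes had a higher signed difference. For Cd2, 7.19% of all genes did. Cd3d was at 5.64 against 5.54, and Skap1 at 4.76 against 4.69.

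Which of these directions held depended on how the arrays were scaled to each other. After centring each array on its median over genes that passed the floor, the median difference of all genes was 0.04, against −0.30 as deposited. Under quantile normalization, centring, the lowess correction or quantile normalization of the 3 IEL arrays alone Cd3e and Lcp2 turned to the colon side in 4 of 4 scalings and Zap70, Lat, Trat1 and Ptprc in 3 of 4. Cd2 kept its direction in all 4, with differences between 1.26 and 1.77, and Cd3d between 0.44 and 1.19. Skap1 did so between 0.41 and 1.05. Cd3g stayed lower in colon IEL, with differences between −0.88 and −0.37, so its 2-fold call did not hold under any of the 4.

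A difference taken relative to the mean difference of the 3 CD3 chains removes a shift that is common to all genes. On this relative scale Cd2 was higher in colon IEL than in small intestinal IEL by 1.41, and between 1.28 and 1.52 under the 4 scalings. Skap1 was higher by 0.55 on the same scale, whereas Zap70 was at −0.06, Lat at 0.03, Ptprc at 0.10, Trat1 at 0.13 and Lcp2 at 0.18. Under the other scalings Lat reached 0.45, Lcp2 0.38 and Zap70 0.26, and Skap1 0.81. The chains themselves differed from each other: Cd3d was at 0.58 and Cd3g at −0.74 relative to their mean, with Cd3e between them at 0.16. The difference of Cd3d exceeded that of Cd3g by 1.32 as deposited and by up to 1.84 under the other scalings. For scale, the SD of the same log2 difference was 0.52 over 52 ribosomal protein genes, and 1.08 for the gap between paired probe sets in the 968 genes with 2. Cd3d and Cd3g are the widest of the 3 pairs of chains and were singled out after their values were seen. Their gap as deposited is little above the probe set yardstick, which is no replicate error. Both yardsticks were computed on values as deposited, over bright and dim genes alike.

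Cd2 and Cd3d also headed the comparison of recolonized colon IEL with the same small intestinal IEL array. Cd2 was at 5.67 against 3.77, higher by 1.90, and 0.541% of all genes had a larger difference. Cd3d was at 6.54 against 5.54, a difference of 1.00, and these 2 were the members at least 2-fold higher, with 0 lower, where 4.76% of all 12379 genes were higher and 17.9% lower. Skap1 was at 5.65 against 4.69 and Lat at 6.76 against 5.95, differences of 0.96 and 0.81 that passed 2-fold under all 4 other scalings. Cd3g was at 8.77 against 9.25 and Trat1 at 3.74 against 4.27, both lower under all 4. Cd3e, Lcp2 and Ptprc differed by −0.07, −0.01 and −0.08 and turned sign under all 4. The median difference over the 10 genes was 0.00, against −0.20 for all genes. Both colon comparisons share the small intestinal array, so a deviation of that array would appear in both.

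Markers of other cells moved with this comparison. The 11 measured B cell markers had median levels of 2.62 and 3.09 on the recolonized and colon IEL arrays, against 5.29 on the small intestinal IEL array. Cd79a, a chain of the B cell receptor, was at 3.31 and 5.57, against 7.49. Of these 11, 6, 9 and 10 lay at or above the array's median in recolonized, colon and small intestinal IEL, where the highest was at 3.31, 5.57 and 7.49. Mouse B cells also carry CD2 and CD45. As deposited, the small intestinal array had the lowest Cd2 level of the IEL arrays, 3.77, and the highest Ptprc level, 9.10. Cd2 stayed lowest there under all 4 other scalings. Ptprc did not stay highest there: it was higher in recolonized colon IEL under all 4, and in colon IEL under 3 of 4. The 12 stromal markers had medians of 5.01 and 5.40 on the recolonized and colon arrays, against 3.27 for small intestinal IEL, and 11 small intestinal enterocyte markers 2.66 and 2.22, against 9.50. The part of these cells in the differences of the 10 genes was not tested.

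**Figure D3:**
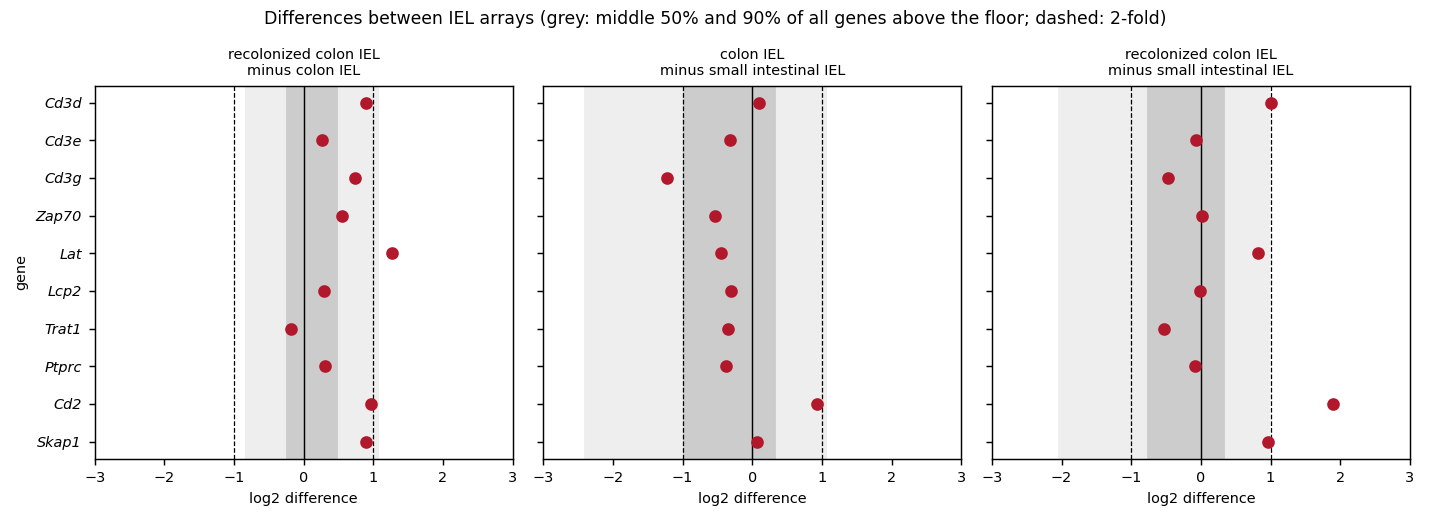
Log2 difference of each of the 10 genes between pairs of IEL arrays (horizontal axis), with grey bands for the middle 50% and 90% of all genes above the floor and dashed lines at 2-fold. Cd2 lies farthest right in the recolonized minus small intestinal panel at 1.90, Lat in the recolonized minus colon panel at 1.26, and Cd3g farthest left in the colon minus small intestinal panel at −1.22.

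**Figure D4:**
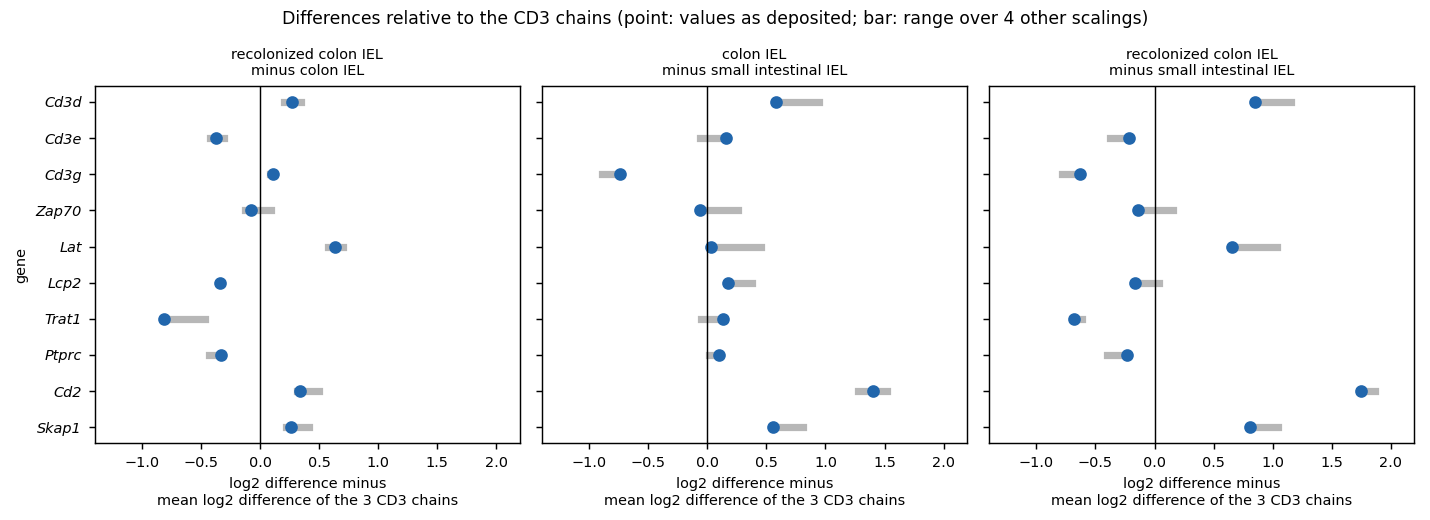
The same differences after subtracting the mean difference of Cd3d, Cd3e and Cd3g (horizontal axis, log2); points are values as deposited and bars the range over 4 other scalings. Cd2 stands right of the other genes in both comparisons with small intestinal IEL, at 1.41 and 1.75. The CD3 chains fall on both sides of 0 by construction, and in these comparisons Cd3d is the highest of them and Cd3g the lowest.

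The comparison of recolonized with unmanipulated colon IEL bears on antibiotics followed by the return of bacteria. Levels on the recolonized array were above those of the colon IEL array for 9 of the 10 genes, mostly by less than 2-fold. Lat was at 6.76 against 5.50, higher by 1.26, and was the 1 member at least 2-fold higher, with 0 lower, where 6.04% of all 12443 genes were higher and 3.06% lower. Cd2 was at 5.67 against 4.70, Cd3d at 6.54 against 5.64 and Skap1 at 5.65 against 4.76, differences of 0.97, 0.90 and 0.89. Cd3g was higher by 0.74 and Zap70 by 0.55. The smallest differences upward were those of Ptprc, Lcp2 and Cd3e: Ptprc was at 9.01 against 8.71 and Lcp2 at 7.80 against 7.51, differences of 0.30 and 0.29, and Cd3e was higher by 0.26. Trat1 alone was lower, at 3.74 against 3.92.

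The median difference of the 10 genes was 0.65, against 0.13 for all genes above the floor, 0.43 for ribosomal protein genes and 0.41 for the pan-leukocyte genes. It was 0.31 under quantile normalization, 0.32 with the 3 IEL arrays alone and 0.18 under lowess, where the pan-leukocyte median was 0.10, 0.10 and −0.11. Under the 4 other scalings the Lat difference lay between 0.79 and 1.19, so that it stayed past 2-fold only after centring. Ptprc and Lcp2 turned negative in 3 of the 4 and Cd3e in 1, while Cd3d, Cd3g, Zap70, Lat, Cd2 and Skap1 stayed positive and Trat1 negative in all 4. Relative to the mean of the CD3 chains, Lat was higher by 0.63, between 0.58 and 0.70 under the 4 scalings, and Cd2 by 0.34. Trat1, a dim gene, was at −0.82 on this scale, and at −0.47 under lowess. In this comparison the SD of the log2 difference was 0.58 over ribosomal protein genes and 0.73 for the gap between paired probe sets. As deposited, the relative difference of Cd2 was below both yardsticks, that of Lat between them and that of Trat1 little above them in size. Under lowess that of Trat1 was below both, which were computed on values as deposited.

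Natural killer cells use Zap70, Lat and Cd2 as well. Of 5 measured natural killer cell markers, 3 lay at or above the median of all genes on the recolonized array and 0 on the colon IEL array. Ncr1, an activating receptor of these cells, was at 3.76 against 2.24. Eomes and Klri2, at 2.41 and 2.40 on the recolonized array, lay next to its median of 2.39. The median difference of the 5 markers was 0.22, against 0.41 for the pan-leukocyte genes. Pan-epithelial markers had a median of 5.44 on the recolonized array against 4.27 on the colon IEL array, with all 14 above 0 in the difference. Of 9 colonocyte markers, 7 were at least 2-fold higher and 0 lower, with a median level of 6.54 (lowest 3.61) on the recolonized array against 3.23 (lowest 2.22) on the colon IEL array. Of 11 B cell markers, 9 passed the floor, and of these 0 were at least 2-fold higher and 5 lower on the recolonized array. Over all genes above the floor, 6.04% were higher and 3.06% lower. The red cell gene Slc4a1, the band 3 anion exchanger, was at 2.32 against 7.93, while the other 2 red cell genes measured, Epb42 and Tfrc, differed by −0.85 and 0.26. The part of these cells in the differences was not tested.

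The other measured genes of the receptor pathway numbered 65 of 79 listed. Cd247 (the CD3 zeta chain), the kinase Lck and the receptor constant chains were among those not analysed here. Between recolonized and unmanipulated colon IEL, 3 of the 64 pathway genes that passed the floor were higher by the 2-fold rule and 0 lower, with a median difference of 0.28 over the 65. Between colon and small intestinal IEL, 2 of 65 were higher and 13 lower, with a median of −0.41. For recolonized against small intestinal IEL, 5 were higher and 11 lower, with a median of −0.21. Shares of all genes for these comparisons are given above with the counts of the 10 genes. The medians of 5 of the 6 lists for colon minus small intestinal IEL, all but that of the receptor partner Fcer1g, were negative as deposited and positive under either quantile normalization and under lowess. Against the lamina propria-labelled array, 40 of 65, 34 of 64 and 39 of 65 pathway genes above the floor were higher in recolonized, colon and small intestinal IEL. In the same order 5, 6 and 3 were lower. Of all genes, 9.41%, 10.5% and 8.76% were higher and 30.3%, 34.7% and 15.7% lower.

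Fcer1g, a signalling chain that can stand in for the CD3 zeta chain in the receptor of some mouse IEL, was at 7.02 in recolonized colon IEL, 5.56 in colon IEL and 7.87 in small intestinal IEL, against 3.18 on the lamina propria-labelled array. It was higher by 1.45 in recolonized than in unmanipulated colon IEL and lower by 2.31 in colon than in small intestinal IEL, and kept both directions under the 4 other scalings. Its order over the IEL arrays was that of Cd3g, and unlike that of Cd2. Fcer1g is also expressed by natural killer, mast and myeloid cells.

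Among the 4 measured proximal kinases, Fyn and Txk, kinases of the SRC and TEC families, were within 2-fold over the IEL arrays and low on the fourth. Fyn was at 4.68, 4.59 and 4.82 on the recolonized, colon and small intestinal arrays, against 1.89 on the lamina propria-labelled array, and Txk at 5.66, 5.22 and 5.97, against 2.24. Syk, the relative of Zap70 that B cells rely on, was at 2.85, 3.52 and 4.34, against 3.49, and was lower by 1.48 in recolonized than in small intestinal IEL. Tec was at 4.03, 3.11 and 4.99, against 3.78. Over the list, 0 of 4 were past 2-fold between the colon arrays and 1 of 4, Tec, was lower in colon than in small intestinal IEL.

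Of the 13 adaptors and scaffolds, 12 of which passed the floor between the colon arrays, 1 was at least 2-fold higher on the recolonized than on the colon IEL array, Fyb, which binds SLP-76 and Skap1, at 5.73 against 4.52, and 0 were lower. Grap2, the adaptor that joins SLP-76 to LAT, was within 0.32 over the IEL arrays, at 6.18, 5.97 and 5.86 on the recolonized, colon and small intestinal arrays, against 1.86 on the lamina propria-labelled array. Sh2d2a, an adaptor of the kinase Lck, was at 5.89, 5.84 and 6.55, against 2.37. Was, the actin regulator mutated in human Wiskott-Aldrich syndrome, was at 4.23, 3.80 and 4.78, against 1.77. For colon against small intestinal IEL, 0 of the 13 were higher and 1 lower, Skap2, named after its values were seen, at 2.66 against 4.41. This relative of Skap1 was also at 4.43 on the lamina propria-labelled array.

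Of the 19 genes that restrain the pathway, 0 were past 2-fold between the colon arrays, and 1 was higher and 3 lower in colon than in small intestinal IEL. Cd5, a surface protein that dampens receptor signalling, was at 6.02 and 5.86 on the recolonized and colon arrays, against 4.77 in small intestinal IEL. Lax1, an adaptor related to Lat that limits signalling, was at 4.23 and 3.72, against 6.12. Ptpn22, a phosphatase that acts on Lck and Zap70, was at 6.49 and 6.99, against 7.66, and Sla2, an adaptor that lowers receptor levels, at 6.19 and 6.47, against 6.87. Csk, the kinase that holds Lck inactive, was at 5.65 and 5.40, against 6.20, while its level of 5.47 on the lamina propria-labelled array was as high, so it did not follow the low level of the 10 genes there. Cd5 and Lax1 kept their directions between colon and small intestinal IEL under all 4 other scalings.

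Of the 16 downstream effectors, 0 were past 2-fold between the colon arrays, with a median difference of 0.56, while 1 was higher and 5 lower in colon than in small intestinal IEL. Prkcq, the protein kinase C of T cells, was at 6.46 and 6.33 on the recolonized and colon arrays, against 4.89 in small intestinal IEL, and differed from it by between 1.78 and 2.44 under the 4 other scalings for colon IEL. Rasgrp1, which activates Ras downstream of Lat, was at 6.97 and 6.15, against 5.94. Vav1, an exchange factor that binds SLP-76, was at 5.21 and 4.31, against 5.36. Pik3cd, a catalytic subunit of phosphoinositide kinase, was at 5.78 and 5.45, against 5.99, and Plcg1, the phospholipase that docks on Lat, was at 4.40 and 3.67, against 4.39. Map4k1, named after its values were seen, a kinase that limits signalling through SLP-76, was at 3.90 and 3.36, against 5.00.

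The partners of Cd2 and Ptprc did not share one pattern. Cd48, the ligand of CD2 in mice, was at 5.61, 5.19 and 5.63 on the recolonized, colon and small intestinal IEL arrays, against 2.13 on the lamina propria-labelled array. As deposited this order was unlike that of Cd2, but under 3 of the 4 other scalings it was the same. Cd244a, another receptor for CD48, was at 4.80, 4.84 and 6.80, against 2.21, and was thus lower in both colon samples than in small intestinal IEL, by 2.0 and 1.96. Slamf6, of the same receptor family, was at 5.48, 4.69 and 4.42, against 1.43, the order seen for Cd2. Sh2d1a, the adaptor SAP of these receptors, was at 3.20, 3.08 and 2.74, against 2.11. Cd2ap, named for binding CD2 but also used in epithelia, was at 6.13, 4.62 and 7.24, against 8.35, the reverse of the T cell genes on the fourth array. Ptprcap, which binds CD45, was at 4.50, 3.91 and 4.24, against 1.88. Of the 12 genes in this list, 1 was at least 2-fold higher and 0 lower between the colon arrays, and 0 were higher and 2 lower in colon than in small intestinal IEL.

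**Figure D5:**
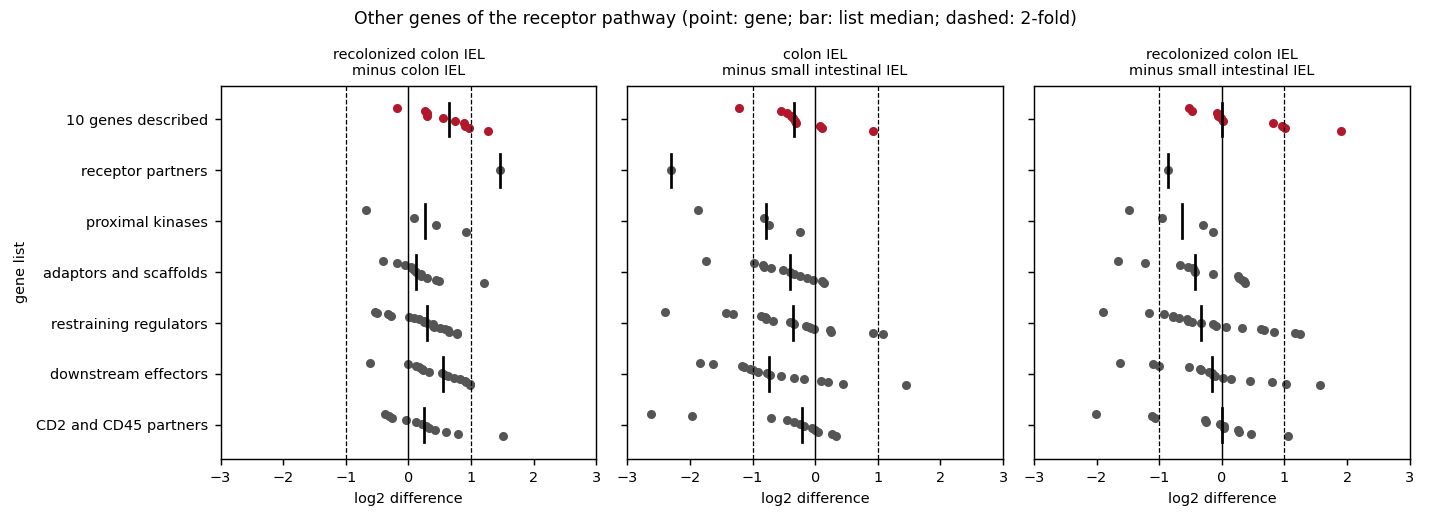
Log2 differences between pairs of IEL arrays (horizontal axis) for the 10 genes and for the 6 lists of other pathway genes, 1 point per gene, with the list median as a bar and dashed lines at 2-fold. In the colon minus small intestinal panel 13 of 65 pathway genes lie left of the lower 2-fold line and 2 right of the upper one.

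Among themselves the 10 genes were compared by the Euclidean distance between their log2 profiles over the 4 arrays, each centred on its own mean. Cd3e and Ptprc were the closest pair, at 0.19, and Cd3g and Cd2 the farthest, at 3.75. Cd3d was closest to Lat at 0.50, and Cd2 closest to Skap1 at 0.81. Over 12521 other named genes that reached the median level on at least 1 array, the 8 genes most like the mean profile of the CD3 chains were Cd52, Selplg, Rac2, Ctsw, Cd7, Il2rb, Fli1 and Itga4, at distances between 0.32 and 0.77. Those most like Ptprc were Msn, Cd7, Cd53, Selplg, Cd52, Fli1, Ctsw and Ptpn22, at distances between 0.47 and 1.08. With 4 arrays, of which 1 is far lower than the rest, the drop on that array weighs most in these distances.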

How the data were processed

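RNA of 4 samples, 1 per group by the labels, was measured on Affymetrix mouse arrays. The authors deposited log2 levels. The submitters' processing notes name Affymetrix Expression Console, and for its version, for how probes were summarized and for the scaling of arrays the entry is: not given in the sources used here. The table held 41345 probe sets, of which 23521 listed 1 gene symbol, 1814 several (naming no gene here) and 16010 were not in the platform gene table used here. Gene IDs of 23328 matched RefSeq (GRCm38.p6). Each gene was represented by the brightest of its probe sets, by mean level, and no probe set coordinates are printed.

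Differences between arrays, counts at 2-fold with a floor at the 50th percentile, list medians and profile distances were computed in Python 3.11.15 with pandas 2.3.3 and numpy 2.4.6, and tested on simulated data. No test is possible with 1 array per group. The alternatives were floors at the 25th and 75th percentile or none, 1.5-fold and 3-fold thresholds, other rules for choosing probe sets, centring on the median, quantile normalization and a lowess correction (span 0.3; statsmodels 0.14.6). Quantile normalization of the 3 IEL arrays alone was chosen after seeing the data.

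The 10 genes, the other lists and the rule for naming genes (the 10 genes, up to 4 pathway genes per list, Fcer1g, Fyn, Syk, Csk, Grap2, Fyb, Plcg1, Vav1, Ptprcap, Cd48 and Sh2d1a by name, up to 3 markers per list with the largest range or level, and the 8 genes most like the CD3 chains or Ptprc) were chosen with earlier results of these data known. Promoters are RefSeq's.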

Additional observations from a re-analysis of the deposited data

How the results depend on the processing

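No paired analysis was possible because each group had 1 array and the labels gave no replicate numbers; for the same reason no replicate could be left out, and no difference has an error from replicates. Other rules for probe sets could not change the values of the 10 genes, since each had 1 probe set. All 10 passed even the floor at the 75th percentile, so no other floor could change their counts or medians. The count at least 2-fold higher for recolonized minus colon IEL (1 as deposited) was 5 at 1.5-fold, where 19.3% of all genes were higher, and 0 at 3-fold, under quantile normalization, the lowess correction and quantile normalization of the 3 IEL arrays alone (1.17%, 6.56%, 3.51% and 5.24% of all genes). For colon minus small intestinal IEL (0) it was 1 at 1.5-fold (16.1% of all genes) and after centring (13.8%), 2 under lowess (8.68%), and 3 under quantile normalization of all arrays (11.4%) or the 3 IEL arrays (10.0%). For recolonized minus small intestinal IEL (2) it was 1 at 3-fold (0.897% of all genes), 4 at 1.5-fold (15.0%) and 4 under each of the 4 scalings, where between 7.00% and 10.6% of all genes were higher. The median of the 10 genes for colon minus small intestinal IEL was 0.55 under quantile normalization, 0.51 under lowess and 0.56 with the 3 IEL arrays alone, against −0.33 as deposited. For recolonized minus small intestinal IEL these were 0.65, 0.55 and 0.66, against 0.00. With the lamina propria-labelled array as comparator, the median was 3.88 (quantile) and 4.20 (lowess) for colon IEL, 5.25 (lowess) for recolonized colon IEL and 2.95 (quantile) for small intestinal IEL. The cause was not tested. Over all genes, colon minus small intestinal IEL had 11.4% higher and 13.7% lower under quantile normalization, 13.8% and 16.7% after centring and 8.68% and 13.2% under lowess, against 5.98% and 24.4% as deposited.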
